A study of Danio rerio with 9 samples.

Results

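The contacts described here are pairs of 10 kb bins on 1 chromosome that were called as interacting over more than 5 Mb (start of the right bin minus start of the left bin), on every zebrafish chromosome except chromosome 4. They were taken from 3 deposited lists of called interactions of the regenerating caudal fin, 1 list per time point. The lists held 316 such pairs at 0 days post amputation (dpa), 293 at 1 dpa and 284 at 4 dpa, of 28421, 18712 and 26988 called pairs in all. They were 1.11%, 1.57% and 1.05% of the 3 lists. Counted once each, they came to 428 distinct bin pairs of 43117. Pairs whose left anchors and right anchors both lay within 100 kb of those of another such pair, in any list, were joined into 334 groups. The members were chosen by position alone, so their counts played no part in the choice beyond the authors' calling.

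The fish were wild type adults of the outbred Ekkwill strain of zebrafish, aged 6 to 8 months. Fins were cut at 50% of their length and collected as freshly amputated tissue at 0 dpa, which serves as the uninjured control, or as regenerating tissue at 1 or 4 dpa. Each time point had 3 pools of 10 fins, but the deposited lists hold 1 value per time point. No spread between pools could therefore be measured and no test between times could be made. Whole fin clips mix epidermis, bone-lining cells, fibroblasts, vessels and blood, and their makeup differs between an uninjured stump and a regenerate, so a contact in fewer cells and a weaker contact cannot be told apart. Positions are 1-based in danRer11, an assembly of another strain (Tübingen). Neither the sequence nor the genes at the anchors were examined here.

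HiCAR tags accessible chromatin with the transposase Tn5 and ligates the tag to DNA that lies close to it in the nucleus, so that each sequenced molecule joins an open site to a neighbour in space. Contact frequency between loci of 1 chromosome falls steeply with their distance along it, and most loops of enhancers, promoters and CTCF sites lie within domains far shorter than the spans described here. Pairs that stand out over many megabases are therefore rare events in such maps. In fins, 1 dpa is the stage of wound closure and early blastema formation, and 4 dpa that of outgrowth from a proliferating blastema.

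Called pairs over 5 Mb were nearly as numerous at 1 dpa as in uninjured fins, while the list as a whole was much shorter. Their number at 1 dpa was 0.927 times that at 0 dpa, against 0.658 times for all called pairs. At 4 dpa it was 0.899 times that at 0 dpa, against 0.950 times for all pairs. Pairs over 1 and up to 5 Mb numbered 282, 240 and 375 at 0, 1 and 4 dpa, or 0.851 and 1.33 times the 0 dpa number at 1 and 4 dpa. The direction at 4 dpa depended on singletons, pairs with no called neighbour in the authors' marks. Without them the members numbered 64, 59 and 87 at 0, 1 and 4 dpa, or 0.922 and 1.36 times the 0 dpa number at 1 and 4 dpa. Pairs over 1 and up to 5 Mb without singletons numbered 144, 115 and 251, or 0.799 and 1.74 times. With a count of at least 20, the members numbered 141, 128 and 96 at 0, 1 and 4 dpa. Pairs over 5 Mb on chromosome 4, which are not part of the set, numbered 50, 50 and 51. The depth behind each list is unknown, and these numbers have no replicate check.

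**Figure D1:**
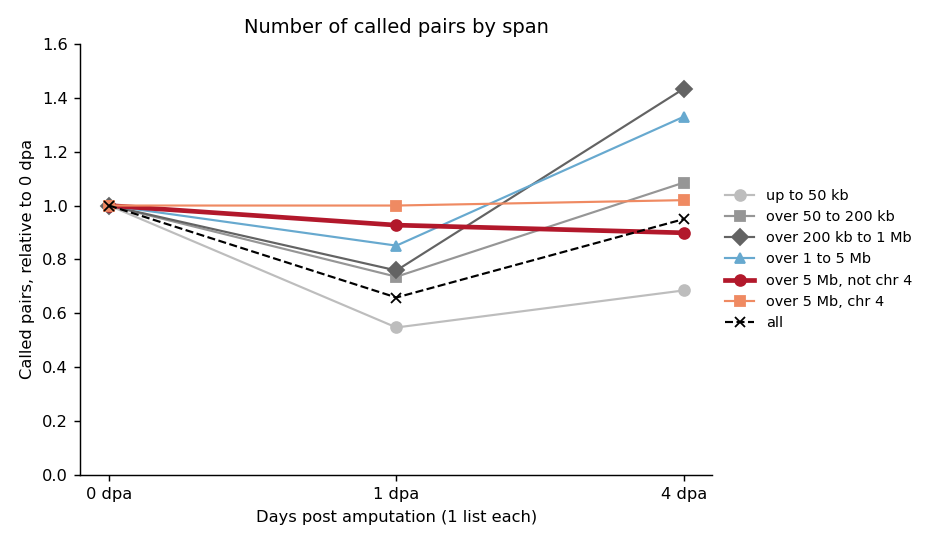
Number of called pairs at 0, 1 and 4 dpa relative to 0 dpa (vertical axis, no unit) for 6 span classes and for all pairs, with 1 list per time point and no error. The thick line, pairs over 5 Mb outside chromosome 4, stood at 0.927 at 1 dpa and 0.899 at 4 dpa, while pairs over 1 to 5 Mb stood at 1.33 at 4 dpa.

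All of these pairs sat far above the authors' expected count, which was close to 1 for each. The expected count ran from 1.00 to 1.26 over the 893 entries of the 3 lists, so the observed over expected count nearly equals the count itself. The count behind a pair was 12 at the lowest, 18 at the median and 134 at the highest at 0 dpa. At 1 dpa these values were 12, 18 and 135, and at 4 dpa they were 12, 16 and 120. At the median, members were 17.8, 17.5 and 15.6 times the expected count at 0, 1 and 4 dpa, against 3.83, 4.12 and 3.89 times over all called pairs. This difference follows from the lowest listed count of 12, which over an expected count near 1 puts every member high. The highest FDR (false discovery rate) of any such pair was 2.34e-06, far under the limit of 0.01 seen in the lists. Listed members thus stayed far from the FDR limit but reached down to 12 counts, the lowest count in any list. Whether other filters acted on pairs of this span cannot be seen, since how pairs were called is not given. Many members lay close to 12 counts: 28.2%, 29.4% and 34.9% of them had 12 to 14 counts at 0, 1 and 4 dpa, against 7.38%, 8.59% and 8.49% of all called pairs. Among pairs over 1 and up to 5 Mb these shares were higher still, at 34.8%, 34.6% and 40.8%.

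The count showed no steady fall with distance within the set. At 0 dpa the median count was 18 for spans of 5 to 10 Mb (97 pairs), 19.5 for 10 to 20 Mb (92 pairs), 18 for 20 to 40 Mb (85 pairs) and 18.5 over 40 Mb (42 pairs). At 1 dpa these medians were 17, 19.5, 17 and 20, and at 4 dpa 17, 17, 15 and 17.5. The medians are bounded below by the limit of 12. The median span was 15.3, 16.5 and 14.3 Mb at 0, 1 and 4 dpa. The longest pair called at all times joined chr7:5310001-5320000 and chr7:69720001-69730000 over 64.4 Mb, with 27, 15 and 19 counts at 0, 1 and 4 dpa. A single longer pair, of 73.8 Mb between chr7:350001-360000 and chr7:74170001-74180000, was called at 4 dpa alone with 18 counts.

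**Figure D2:**
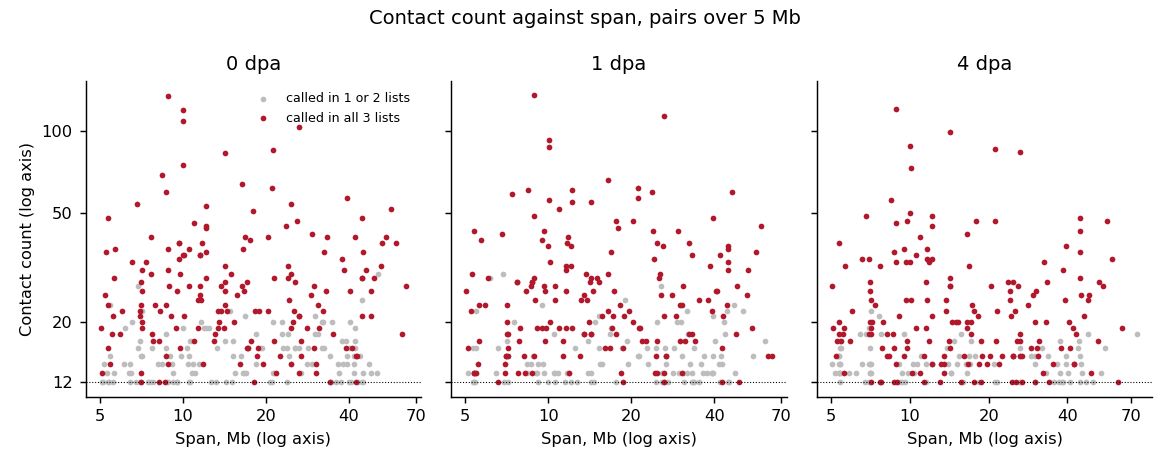
Contact count (log axis) against span in Mb (log axis) for the pairs over 5 Mb outside chromosome 4 at 0, 1 and 4 dpa, with the dotted line at 12 counts, the lowest in the lists. Pairs called in all 3 lists (red) reach 134, 135 and 120 counts, while pairs called in 1 or 2 lists (grey) reach 30 counts.

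At the limit of 5 Mb the set had no sharp edge in strength. Pairs up to 300 kb longer than the limit numbered 8, 5 and 6 at 0, 1 and 4 dpa, with 12 to 36 counts. Pairs up to 300 kb shorter numbered 3, 2 and 1, with 14 to 26 counts, and none of them lay within 100 kb of a member at both anchors.

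The members were spread over all 24 chromosomes examined, with the most distinct pairs on chromosome 18 (39) and the fewest on chromosome 22 (5). Chromosome 18 had 22, 22 and 30 pairs at 0, 1 and 4 dpa, chromosome 21 had 19, 17 and 24, and chromosome 22 had 4, 4 and 3. Counted as groups the order changed. Chromosome 2 led with 26 groups, followed by chromosome 7 with 24, while chromosome 18 had 14 and chromosome 21 had 8. Per 10 Mb of chromosome, groups ran from 1.28 on chromosome 22 to 4.36 on chromosome 2. At 1 dpa the number of pairs was lower than at 0 dpa on 15 chromosomes, higher on 5 and equal on 4, with differences of -5 to 4. At 4 dpa it was lower than at 0 dpa on 17, higher on 5 and equal on 2, with differences of -7 to 8. Over all called pairs, the number was lower than at 0 dpa on 24 chromosomes at 1 dpa and 21 at 4 dpa. A fall on most chromosomes was thus not particular to the members. The members' falls of 7 at 4 dpa were on chromosome 10, with 14, 11 and 7 pairs at 0, 1 and 4 dpa, and on chromosome 14, with 11, 9 and 4. Chromosomes 18 and 21, with 8 and 5 pairs more at 4 dpa than at 0 dpa, carried the largest groups, and chromosome 6 also had 5 more.

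**Figure D3:**
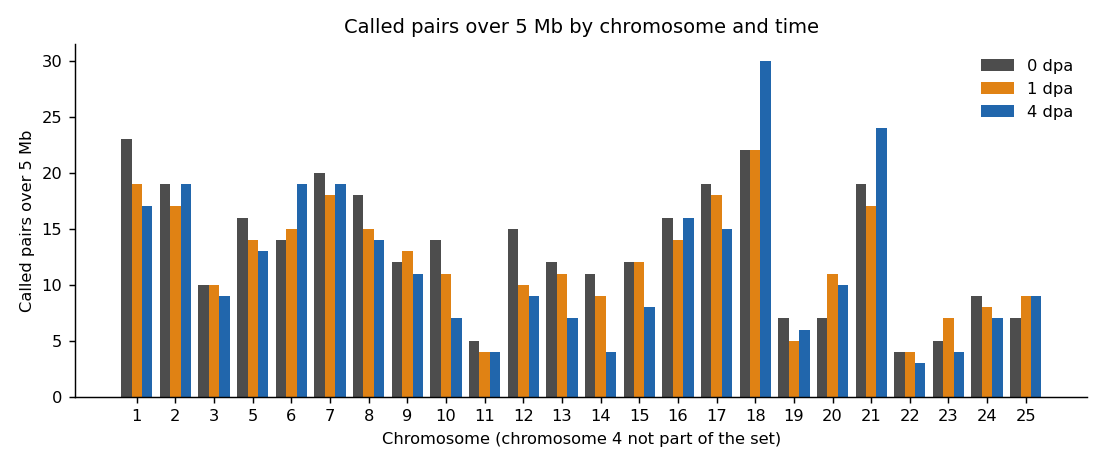
Number of called pairs over 5 Mb on each chromosome except chromosome 4 at 0, 1 and 4 dpa (bars, 1 list per time point, no error). Chromosome 18 reaches 30 pairs and chromosome 21 reaches 24 at 4 dpa, while chromosomes 10 and 14 have 7 and 4 at 4 dpa, against 14 and 11 at 0 dpa.

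Most long contacts stood alone. Of the 334 groups, 307 were a single bin pair, 17 held 2 and 10 held 3 or more. The 10 larger groups took in 87 of the 428 pairs (20.3%), and each of them had pairs at all 3 times. Groups with at least 1 pair numbered 263 at 0 dpa, 242 at 1 dpa and 207 at 4 dpa, so by groups the 4 dpa number was 0.787 times that at 0 dpa. In the file's own marks, 79.7%, 79.9% and 69.4% of the members at 0, 1 and 4 dpa had no called neighbour, against 16.8%, 19.3% and 15.9% of all called pairs. Among pairs over 1 and up to 5 Mb these shares were 48.9%, 52.1% and 33.1%. Among pairs over 5 Mb on chromosome 4 they were 72%, 64% and 64.7%, so standing alone was not particular to the members.

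The largest group, on chromosome 21, joined chr21:37550001-37650000 to chr21:44620001-44700000 with 22 distinct pairs. It had 14 pairs with 12 to 28 counts in uninjured fins, 12 with 12 to 23 counts at 1 dpa and 19 with 12 to 34 counts at 4 dpa. Of the 22 pairs, 10 lay in 1 line: the bin chr21:44680001-44690000 was joined to 9 left bins at each of the 3 times, the most long partners of any bin in the set. Its pair with chr21:37630001-37640000 had 28, 15 and 28 counts at 0, 1 and 4 dpa. A shorter line ran to chr21:44620001-44630000, which had 3, 2 and 5 long partners at 0, 1 and 4 dpa. Its pair with chr21:37630001-37640000 had 22, 13 and 34 counts. Summed over the called pairs, the group held 265, 196 and 349 counts at 0, 1 and 4 dpa, sums that move with how many of its pairs were called.

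The other group of more than 20 pairs lay at the start of chromosome 18. It joined chr18:30001-160000 to chr18:5470001-5540000 with 21 distinct pairs, of which 7, 10 and 18 were called at 0, 1 and 4 dpa. Its strongest pair (here and below the pair of highest count summed over the lists), chr18:150001-160000 with chr18:5520001-5530000, had 48, 43 and 39 counts at 0, 1 and 4 dpa. The count of this pair was thus lowest at 4 dpa, the time at which the group held the most pairs. Each other pair had at most 23 counts in any list. The strongest pair sat at a corner: in 20 of the 21 pairs, itself included, neither anchor lay at a higher position than its own. The 13 pairs of the group called at 4 dpa but not at 0 dpa had 12 to 17 counts at 4 dpa, and a count under 12 at 0 dpa would not be listed.

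**Figure D4:**
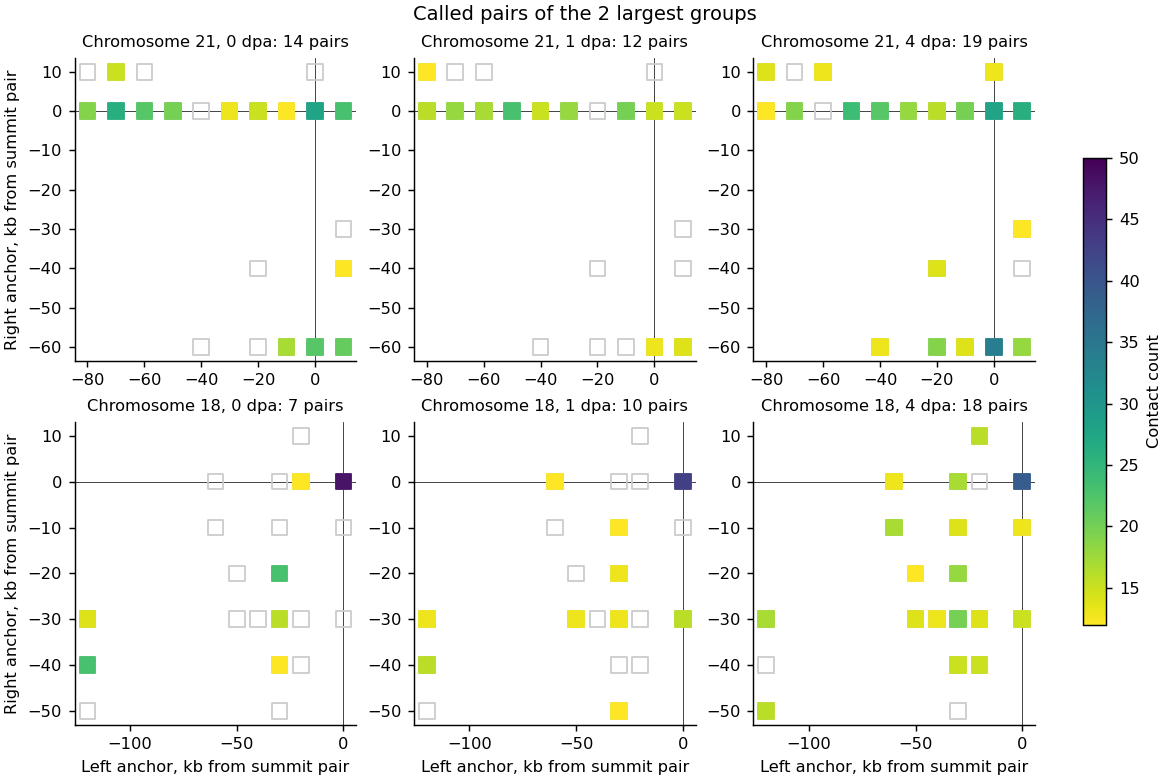
Called pairs of the largest groups, on chromosome 21 (top) and chromosome 18 (bottom), at 0, 1 and 4 dpa, placed by the distance in kb of their left (horizontal) and right (vertical) anchor from the group's strongest pair. Filled squares are called at that time and coloured by contact count, and open squares are called at another time only. Of the 22 chromosome 21 pairs, 10 lie at a right offset of 0, and 20 of the 21 chromosome 18 pairs have neither offset above 0.

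Groups on chromosomes 16, 9 and 6 held fewer pairs with higher counts. On chromosome 16, chr16:44700001-44720000 was joined to chr16:53540001-53680000 by 6 distinct pairs. The pair of chr16:44700001-44710000 and chr16:53540001-53550000 spanned 8.84 Mb and had the highest count of the set at every time, with 134, 135 and 120 counts at 0, 1 and 4 dpa. On chromosome 9, 5 pairs joined chr9:9870001-9910000 and chr9:19890001-19950000, and this group had the highest summed count of all, 887 over the 3 lists. Its pair of chr9:9870001-9880000 and chr9:19940001-19950000 had 119, 93 and 73 counts at 0, 1 and 4 dpa. Its pair of chr9:9880001-9890000 and chr9:19930001-19940000 had 109, 87 and 88, and that of chr9:9870001-9880000 and chr9:19930001-19940000 had 75, 56 and 50. All 3 were thus highest in uninjured fins. On chromosome 6, chr6:23160001-23170000 was joined over 26.3 Mb to chr6:49480001-49490000, with 103, 113 and 84 counts at 0, 1 and 4 dpa. The same left bin had 4, 4 and 7 long partners at these times, all in the one group, which held 8 distinct pairs.

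A further 5 groups held 3 to 7 pairs. On chromosome 17, the pair of chr17:16390001-16400000 and chr17:30680001-30690000 had 83, 55 and 99 counts at 0, 1 and 4 dpa, in a group of 7. On chromosome 25, the pair of chr25:13030001-13040000 and chr25:25190001-25200000 had 44, 61 and 49 counts, in a group of 6. On chromosome 18, the bin chr18:3230001-3240000 was joined over 44.8 Mb to 5 neighbouring bins, and its pair with chr18:48010001-48020000 had 48, 38 and 48 counts. None of these kept 1 direction over the 3 times. On chromosome 7, the pair of chr7:53030001-53040000 and chr7:64590001-64600000 had 27, 31 and 28 counts, in a group of 4. On chromosome 1, the pair of chr1:13600001-13610000 and chr1:30070001-30080000 had 64, 66 and 42 counts, in a group of 3. The chromosome 1 pair was lowest at 4 dpa, while the chromosome 7 pair kept nearly the same count at all times.

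Within these 10 groups the median count was lower away from the strongest pair, with no steady fall beyond 2 to 3 bins. The strongest pairs had a median of 56, 58 and 48.5 counts at 0, 1 and 4 dpa. Pairs 1 bin away from them, the larger offset of the anchors being counted, had medians of 24, 21 and 19 (18, 15 and 19 pairs called). Pairs 2 to 3 bins away had medians of 17, 13 and 15 (11, 13 and 21 pairs called), and those farther off had 19.5, 15 and 14 (18, 18 and 27 pairs called). The strongest pair was chosen by its count, so the first of these steps is partly fixed by that choice, and all medians are bounded below by 12. At single times the strongest pair was not always the highest. On chromosome 21 it had 15 counts at 1 dpa and 28 at 4 dpa, while other pairs of the group reached 23 and 34. In the groups of chromosomes 9 and 25 the called pairs were nested: in 5 of 5 and 5 of 6 pairs, the strongest included, both anchors lay at or inside those of the strongest pair. In the chromosome 16 group, all 6 pairs lay at or beyond the strongest pair on both sides in the direction of higher positions.

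Contacts called as a single bin pair also reached high counts. The pair of chr24:16920001-16930000 and chr24:38100001-38110000, 21.2 Mb apart, had 85, 62 and 86 counts at 0, 1 and 4 dpa, with no other called pair within 100 kb of both its anchors. At 0 dpa it was 81.8 times the expected count (exact Poisson 95% interval 65.3 to 101). The pair of chr7:810001-820000 and chr7:9250001-9260000 had 69, 61 and 56 counts over 8.44 Mb. Both were among the 8 pairs of highest count at every time. Of the 307 single-pair groups, 127 (41.4%) were called at all 3 times and 101 in 1 list.

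Most anchors of long contacts had no called shorter contact, as was the case for most bins. At 0 dpa the members used 578 anchor bins, of which 104 (18.0%) had any called pair of up to 1 Mb, against 21.6% of all 126609 bins outside chromosome 4. At 1 dpa the shares were 14.0% and 15.3%, and at 4 dpa 19.5% and 20.8%. The anchors of pairs over 1 and up to 5 Mb lay between 18.3% and 21.3%. The bins set beside them include those with no called pair of any span, so the comparison is a description.

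Groups rarely shared an anchor region. When the left and right ends of the groups were merged within 100 kb, they formed 628 regions, of which 38 were used by more than 1 group and 2 by 3 groups. The partners of a shared region, or bins near them, were joined to one another by a called pair of any span in 4 of 42 cases. On chromosomes 18 and 8 this pair lay in bins near the partners, not in the partner bins, and spanned only 0.04 and 0.15 Mb. Both were called at 0 dpa alone, with 30 and 15 counts. The clearest case was on chromosome 7. There chr7:64590001-64600000 was joined to chr7:53030001-53040000 with the counts given above and to chr7:55080001-55090000 with 26, 40 and 37 counts at 0, 1 and 4 dpa. The third side, between the adjacent bin chr7:53020001-53030000 and chr7:55080001-55090000, was called with 23, 38 and 12 counts over 2.06 Mb. All 3 sides of this triangle were called at all times. On chromosome 21, chr21:37640001-37650000 was also joined to chr21:44110001-44120000 with 14 counts at 0 dpa and 18 at 4 dpa. That bin in turn was joined to chr21:44620001-44630000 with 16, 22 and 29 counts at 0, 1 and 4 dpa. The triangle and this example were chosen with their values known.

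Long contacts between the 2 ends of a chromosome were called at each time. Both anchors lay in the outer 2 Mb in 2, 2 and 3 pairs at 0, 1 and 4 dpa (0.633%, 0.683% and 1.06%), each time at opposite ends, the last bin of any list being taken as the end. The strongest of them joined chr15:570001-580000 and chr15:46720001-46730000 over 46.2 Mb, with 31, 60 and 21 counts at 0, 1 and 4 dpa. At least 1 anchor lay in the outer 2 Mb in 21.5%, 21.8% and 26.4% of the members at 0, 1 and 4 dpa. The groups of over 20 pairs on chromosomes 18 and 21 lie there, and without them the shares were 15.9%, 15.5% and 15.4%. Shares over all called pairs are not set beside these, because a long span by itself places anchors nearer the ends. Whether contacts between opposite ends are few or many for pairs of such span was not tested.

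Many long contacts were called in identical bins at every time. Of the 428 distinct pairs, 179 (41.8%) were in all 3 lists, against 24.9% of all distinct pairs. The shortest list caps these shares unequally. At most 284 of the 428 members could be in all lists, but only 18712 of all 43117 pairs. A further 56 were called at 0 and 1 dpa only, 26 at 0 and 4 dpa only, and 25 at 1 and 4 dpa only. Pairs called in 1 list numbered 55, 33 and 54 at 0, 1 and 4 dpa. The pairs called at all times had a median of 25, 23 and 20 counts at 0, 1 and 4 dpa. Pairs called in 1 list had a median of 13 counts at each time, with a highest count of 20 at 0 dpa, 20 at 1 dpa and 19 at 4 dpa. By groups, 147 of the 334 (44.0%) had pairs at all times.

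Allowing each anchor to differ by 1 bin, 196 of the 316 members of the 0 dpa list (62.0%) had a counterpart at both later times. This held for 64.9% of all 0 dpa pairs and for 73.8% of those over 1 and up to 5 Mb. At 4 dpa the share without a 0 dpa counterpart was close to that of all pairs, with 56 of 284 (19.7%) against 20.5%. At 1 dpa it was higher, with 48 of 293 (16.4%) against 11.5%. Of the 0 dpa members, 68 (21.5%) had no 1 dpa counterpart, against 29% of all 0 dpa pairs, and 100 (31.6%) had no 4 dpa counterpart, against 22.9%. Of the 0 dpa pairs over 1 and up to 5 Mb, 19.9% had no 1 dpa counterpart and 17.7% no 4 dpa counterpart. The members' share was close to that of this class at 1 dpa and above it at 4 dpa. Of the 50 pairs over 5 Mb on chromosome 4 at 0 dpa, 8% had no 1 dpa and 12% no 4 dpa counterpart. Both shares were below those of the members. Of the 1 dpa members, 82 (28.0%) had no counterpart at 4 dpa, against 14.2% of all 1 dpa pairs. Of the 4 dpa members, 57 (20.1%) had none at 1 dpa, against 28.9%. No counterpart at either later time was found for 48 of the 0 dpa members (15.2%), against 16.8% of all. Neighbouring pairs are not independent and the lists differ in length, so these shares carry no test.

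Whether a long contact was found again went with its count. Of the 0 dpa members with 12 to 14 counts, 43 of 89 (48.3%) had a 1 dpa counterpart and 37 of 89 (41.6%) a 4 dpa counterpart. With 15 to 19 counts it was 66 and 51 of 86, with 20 to 29 counts 74 and 64 of 76, and with 30 or more 65 and 64 of 65. Over all 0 dpa pairs the share varied less with the count. With 12 to 14 counts 68.0% had a 1 dpa and 78.3% a 4 dpa counterpart, with 15 to 19 counts 73.2% and 83.1%, with 20 to 29 counts 72.0% and 78.4%, and with 30 or more 70.2% and 74.3%. The members' shares were thus below those of all pairs at 12 to 14 counts and above them at 30 or more. In 0 dpa pairs over 1 and up to 5 Mb the share also rose with the count. Over the same 4 count classes, 62.2%, 80.5%, 95.2% and 100% of them had a 1 dpa counterpart. For a 4 dpa counterpart it was 66.3%, 85.4%, 92.1% and 100%, so the rise was not particular to the members. The one member of 30 or more counts at 0 dpa with no 4 dpa counterpart joined chr8:1170001-1180000 and chr8:52090001-52100000, with 30 counts at 0 dpa and 22 at 1 dpa. Of the 1 dpa members with 30 or more counts, the one without a 4 dpa counterpart joined chr6:40880001-40890000 and chr6:47760001-47770000, with 27 counts at 0 dpa and 30 at 1 dpa.

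Long contacts listed after amputation with no counterpart in uninjured fins had low counts. The 48 members of the 1 dpa list without a 0 dpa counterpart had 12 to 22 counts with a median of 13, and the 56 of the 4 dpa list had 12 to 18 with a median of 14. In the first set 34 (70.8%) and in the second 37 (66.1%) had 12 to 14 counts. Over all called pairs without a 0 dpa counterpart it was 309 of 2160 at 1 dpa and 894 of 5521 at 4 dpa. Among such pairs over 1 and up to 5 Mb it was 24 of 29 and 61 of 89, so low counts were not particular to the members. Of the 48, 18 (37.5%) had a 4 dpa counterpart, against 42.1% over all called pairs without a 0 dpa counterpart. The strongest joined chr20:3060001-3070000 and chr20:47640001-47650000 over 44.6 Mb, with 22 counts at 1 dpa and 12 at 4 dpa. The next, also on chromosome 20, joined chr20:3590001-3600000 and chr20:28430001-28440000 with 20 counts at 1 dpa and 15 at 4 dpa. Pairs on chromosome 8 between 3830001-3840000 and 33200001-33210000, and on chromosome 15 between 3300001-3310000 and 46890001-46900000, were called at 1 dpa alone with 20 and 18 counts. All 4 stood alone, with no 0 dpa pair in their group. Of the 56 members new at 4 dpa, 13 lay in a group that had pairs at 0 dpa, 12 of them in groups of 3 or more pairs.

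Members of the 0 dpa list found at neither later time had low counts as well. The 48 such members had 12 to 20 counts with a median of 13, and 32 of them had 12 to 14. The strongest, at 20 counts each, joined chr14:7460001-7470000 and chr14:42120001-42130000 over 34.7 Mb and chr17:10900001-10910000 and chr17:51420001-51430000 over 40.5 Mb. Those on chromosome 15, between 2730001-2740000 and 26810001-26820000, and on chromosome 19, between 5840001-5850000 and 47870001-47880000, had 18 and 17 counts. Each of the 4 was the only pair of its group.

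Long contacts called in identical bins at 4 and 0 dpa had fewer counts at 4 dpa. The 205 shared pairs held 4866 counts at 4 dpa, against 5751 at 0 dpa, a ratio of 0.846 (95% interval 0.814 to 0.879, exact conditional binomial). In 127 of them (62.0%) the count was lower at 4 dpa, in 57 (27.8%) higher and in 21 equal, against 34.5% lower and 60.2% higher over all shared pairs. Shared pairs of up to 5 Mb had 1.06 times as many counts at 4 dpa as at 0 dpa. Scaled by that factor, the ratio for long pairs was 0.797 (0.767 to 0.829). At a limit of 1.5-fold on the scaled ratio, 59 (28.8%) were lower at 4 dpa, against 4.83% of all shared pairs, and 5 (2.44%) were higher, against 4.79%. Without scaling, 45 (22.0%) were lower and 9 (4.39%) higher, against 3.15% and 8.07% of all shared pairs. By observed over expected counts the contrast was smaller, since all shared pairs were lower at 4 dpa too. The median ratio on that measure was 0.872 for the long pairs and 0.899 for all shared pairs. At 1.5-fold, 42 of the 205 were lower and 7 higher, against 1558 and 303 of all 15730. A low count passes a fold limit more easily by counting error, and the members' median count was below that of all pairs. What this adds to the members' shares was not tested. For the 112 pairs called at all times with a summed count of at least 60, the scaled ratio was 0.772. That alternative was chosen after seeing the data. Shared pairs over 1 and up to 5 Mb lay between in the scaled ratio, at 0.937 (0.899 to 0.977), and in the share lower, at 10.9%. Their share higher, 5.94%, was above that of the long pairs and of all shared pairs. So was their median ratio by observed over expected counts, 0.984. The intervals cover counting error only, and only pairs with at least 12 counts at both times could enter.

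At 1 dpa the direction depended on the scaling. The 235 pairs shared with 0 dpa held 5979 counts at 1 dpa, against 6310 at 0 dpa, a ratio of 0.948 (0.914 to 0.982) without scaling and 1.07 (1.03 to 1.11) when scaled by the factor of 0.888 of shared pairs up to 5 Mb. On the scaled ratio 36 (15.3%) were at least 1.5-fold higher at 1 dpa, against 4.66% of all shared pairs, and 15 (6.38%) lower, against 3.82%. Without scaling 17 (7.23%) were higher and 28 (11.9%) lower, against 1.59% and 10.2% of all shared pairs. Shared pairs over 1 and up to 5 Mb had a scaled ratio of 1.08 (1.04 to 1.13), with 12.1% higher and 5.49% lower, values close to those of the long pairs. No direction for 1 dpa against uninjured fins was thus shared by the scalings. Between the later times the 204 shared pairs held 4849 counts at 4 dpa, against 5407 at 1 dpa, a ratio of 0.897 (0.863 to 0.932) without scaling and 0.758 (0.729 to 0.788) when scaled by 1.18. Here 66 (32.4%) were lower at 4 dpa, against 5.12% of all shared pairs, and 7 (3.43%) higher, against 4.33%. Without scaling 30 (14.7%) were lower and 12 (5.88%) higher, against 1.64% and 15.6% of all shared pairs. By observed over expected counts the median ratio was 0.893 for these pairs and 0.947 for all shared pairs. Pairs over 1 and up to 5 Mb had a scaled ratio of 0.874 (0.837 to 0.913), with 21.2% lower and 5.98% higher. Without scaling their ratio was 1.03 (0.990 to 1.08), with 10.9% lower and 13.6% higher. Their median ratio by observed over expected counts was 1.02, so the direction for this class depended on the scaling.

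**Figure D5:**
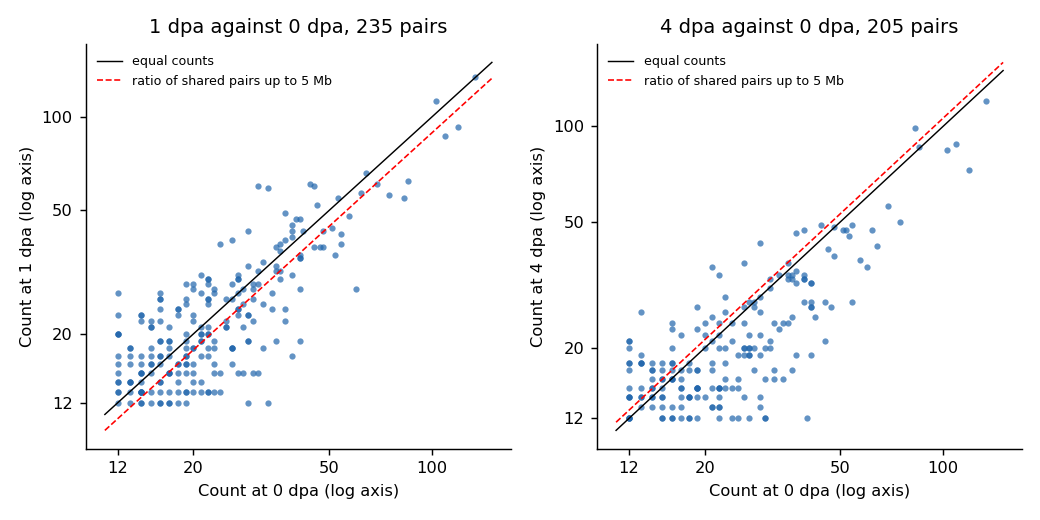
Contact counts (log axes) at 1 dpa (left, 235 pairs) and 4 dpa (right, 205 pairs) against 0 dpa for long pairs listed at the 2 times in identical bins, 1 point per pair. The solid line marks equal counts and the dashed line the count ratio of shared pairs up to 5 Mb. At 4 dpa 127 points lie below the solid line and 57 above it.

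Among the 3 largest rises and 3 largest falls per comparison, some had an interval that leaves out 1. How many of the other shared pairs have such an interval is not given here. The pair of chr6:12960001-12970000 and chr6:30490001-30500000, 17.5 Mb apart, had 40, 47 and 12 counts at 0, 1 and 4 dpa, a scaled ratio of 0.283 (0.135 to 0.550) at 4 over 0 dpa. The pairs of chr10:6410001-6420000 with chr10:31020001-31030000 and of chr24:26720001-26730000 with chr24:34430001-34440000 had 30, 15 and 12 and 30, 28 and 12 counts, each with a scaled ratio of 0.377 (0.176 to 0.758) at 4 over 0 dpa. The largest scaled ratio at 4 over 0 dpa was 1.88 (0.934 to 3.99), at chr24:1820001-1830000 with chr24:32240001-32250000, which had 13, 13 and 26 counts. The next highest was 1.65 (0.775 to 3.68), at chr8:6660001-6670000 with chr8:14280001-14290000, which had 12 counts at 0 dpa and 21 at 4 dpa, and was not called at 1 dpa. The same ratio held for the pair of chr16:36400001-36410000 and chr16:54610001-54620000. The intervals of all 3 include 1. At 1 over 0 dpa, the pair on chromosome 15 that joins its outer parts, given above, had a scaled ratio of 2.18 (1.39 to 3.48). The pair of chr25:2720001-2730000 and chr25:11380001-11390000 had 12, 27 and 18 counts and a ratio of 2.53 (1.24 to 5.49). That pair of chromosome 16 had 12, 23 and 21 counts and, at 1 over 0 dpa, a ratio of 2.16 (1.03 to 4.76). Its unscaled ratio of 1.92 (0.915 to 4.23) has an interval that includes 1, while the other 1 over 0 dpa ratios named keep theirs on 1 side of it.

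Some long contacts were low at 1 dpa alone. The pair of chr13:44190001-44200000 and chr13:50760001-50770000, 6.57 Mb apart, had 33, 12 and 34 counts at 0, 1 and 4 dpa. Its scaled ratio was 0.409 (0.192 to 0.813) at 1 over 0 dpa and 2.39 (1.21 to 5.08) at 4 over 1 dpa. The pair of chr16:44080001-44090000 and chr16:53820001-53830000 had 39, 17 and 47 counts, with ratios of 0.491 (0.260 to 0.888) and 2.34 (1.32 to 4.34). The pair of chr9:960001-970000 and chr9:8320001-8330000 ran the other way, with 33, 59 and 23 counts and a ratio of 0.329 (0.194 to 0.542) at 4 over 1 dpa. A pair on chromosome 9 between 4340001-4350000 and 53510001-53520000 was low at both later times, with 29, 12 and 13 counts and a ratio of 0.466 (0.216 to 0.941) at 1 over 0 dpa. These pairs were chosen as extremes among 204 to 235 shared ones, and no interval takes account of that choice. Of the 179 pairs called at all times, 97 had a highest count under 1.5 times their lowest, and 25 had one of at least 2 times.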

How the data were processed

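HiCAR libraries of 9 pools of 10 caudal fins (3 pools each at 0, 1 and 4 dpa) were represented by 3 deposited lists of called interactions, whose time points were read from the list names, which match the sample titles. Per the file headers, each row holds a deposited contact count, an expected count (a deposited signal value whose model is not stated), a q-value by the authors (false discovery rate) and a −log10 p of the cluster deposited by the authors, whose size and summit mark are also given. Per the submitters' processing notes, BWA and danRer11 were used. How pairs were called and pools combined is not given in the sources used here. All counts were at least 12.

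Members were pairs over 5000000 bp outside chromosome 4. Groups were formed by single linkage over all lists, with both anchors within 100 kb. A counterpart had both anchors within 1 bin. Count ratios between times used pairs called in the same bins and were scaled by the summed counts of such pairs of up to 5 Mb. Intervals are at the 95% level. A pair's count over its expected count has an exact Poisson interval. All intervals cover counting error only, since each time has 1 list and no replicate values. They treat counts as independent, which reads and neighbouring pairs are not, so they may be too narrow. Grouping, matching and intervals were tested on simulated data. Python 3.11.15, pandas 2.3.3, numpy 2.4.6, scipy 1.17.1 and matplotlib 3.10.9 were used.

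Members and rules were chosen with earlier results of these data known. The naming rule took every group of 3 or more pairs, the 5 groups of highest summed count, the 8 pairs of highest count at each time, the 4 strongest pairs without a counterpart before or after amputation, and the 3 largest rises and falls per comparison. Pairs named for their span, chromosome ends, shared anchors or loss at 4 dpa, and the 4 over 1 dpa extremes, were picked with their values known. The rule also took every group called at all times; these were 147 and are given by counts. Anchors were not assigned to genes or sequences, because the reference at hand was of another assembly.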

Additional observations from a re-analysis of the deposited data

How the results depend on the processing

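Over 98 alternatives to 23 values, 68 stayed within 1.5 times a count or within the counting interval, and 30 did not. The 68 include the alternatives of FDR and of equal list length, which could not differ, so the tally does not measure stability. With a count of at least 20 the set held 141, 128 and 96 pairs at 0, 1 and 4 dpa, and 60 groups were called at all times. Without the singletons marked in the files it held 64, 59 and 87 pairs in 24 groups, so its number was highest at 4 dpa. Over 10 Mb, 188 pairs remained at 4 dpa. The 4 dpa list grouped alone gave 207 groups. An FDR of at most 0.0001 left the numbers of pairs and groups and the counterpart shares as they were, since all members' FDR values are lower, and lists of equal length could not change those shares, since every member stayed in. Of the 4 dpa pairs, 72.2% had a 0 dpa and 71.8% a 1 dpa counterpart in identical bins, and 84.9% a 0 dpa counterpart within 100 kb, against 80.3% and 79.9% within 1 bin. The summed count ratio was 0.948 for 1 over 0 dpa, 0.846 for 4 over 0 dpa and 0.897 for 4 over 1 dpa with raw counts. It was 0.948, 0.844 and 0.894 with observed over expected counts, which is no separate check, since the members' expected counts were all close to 1. Scaled by pairs over 1 and up to 5 Mb, an alternative chosen after seeing the data, it was 0.986, 0.851 and 0.867. The 1 over 0 dpa ratio, 1.07 as reported, was thus below 1 under these 3, while both 4 dpa ratios were below 1 under each alternative run. Pairs with both anchors in the outer 1 Mb were 0% at 0 and 1 dpa, and in the outer 5 Mb 4.75%, 4.44% and 4.58% at 0, 1 and 4 dpa. Without the groups of over 20 pairs, also chosen after seeing the data, 295, 271 and 247 pairs remained at 0, 1 and 4 dpa, of which 15.9%, 15.5% and 15.4% had an anchor in the outer 2 Mb. The cause of these shifts was not tested. No paired analysis was possible because no replicate values are in the lists, and no replicate could be left out for that reason. Sequencing depth is unknown, and a pair under 12 counts has no value, which limits every statement on pairs called at some times only.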
